A study of Mus musculus with 26 samples.

Results

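The Hox genes of the mouse lie in 4 clusters, Hoxa, Hoxb, Hoxc and Hoxd. The members were all protein-coding genes of the GRCm38 assembly named Hox, a cluster letter and a number, which gave 39 genes of 21887. The Hoxa cluster held 11 genes at chr6:52155367-52260880 and is read from the minus strand. The Hoxb cluster held 10 genes at chr11:96194316-96368254, the Hoxc cluster held 9 at chr15:102921131-103036856 and the Hoxd cluster held 9 at chr2:74668225-74765142, all read from the plus strand. Peaks were counted where their centre fell in a cluster or within 20 kb of its ends. These windows held 318 of the 451563 peaks in 26 lists.

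Hox genes encode homeodomain transcription factors that give cells of the embryo their position along the head-to-tail axis. Their number is the paralogue group: low numbers are used first and furthest forward, high numbers later and further back, in the order in which the genes stand on the chromosome. In pluripotent cells the clusters are a textbook target of Polycomb repression, and they are opened stepwise during gastrulation, under Wnt, FGF and retinoic acid signals.

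Open chromatin was measured by ATAC-seq, which marks accessible DNA by the insertions of the Tn5 transposase, on 50000 cells a library. The first set had 18 libraries in 6 groups of 3: ES cells in 2iL at passage 16, formative stem (FS) cells in A3XR as FS1 at passage 21 and FS2 at passage 29, and epiblast stem cells (EpiSC). The EpiSC were kept in AF at passage 22 (EpiSC_AF) or in AFX, as EpiSC_AFX1 at passage 14 and EpiSC_AFX2 at passage 16. A further set, Rd2, had 2 libraries of ES cells in 2iL at passage 33, 4 of epiblast-like cells (EpiLC) and 2 of EpiSC in AFX at passage 16. The EpiLC were made from ES cells in AF with KSR over 2 days and were sorted for low GFP, and their replicates are numbered 1.1, 1.2, 2.1 and 2.2. FS joins FS1 and FS2, and EpiSC_AFX joins its pair of lines. The source label of the Rd2 ES libraries is Rd2GFP, and no first-set source label names GFP. The labels do not explain that name or spell out the media, and give no further genotype and no sex. They do not say whether libraries of a group came from separate cultures. Each p therefore measures the spread between these libraries, which may be technical.

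List lengths differed widely between libraries. The first-set lists held from 8044 peaks (ES replicate 2) to 31263 (FS1 replicate 3), the Rd2 lists from 471 to 26045, and the sequencing depth behind them is unknown. ES lists were the shortest of the first set, at 8044 to 10961 peaks. Comparisons between first-set groups were therefore made at equal list length, on the 8044 peaks of each list with the highest −log10 p. "As deposited" below means the whole list. Of 8 naive pluripotency markers tested, Tbx3 and Zfp42 had more assigned peaks in ES than in each other cell type by limma, with no spread within lines, and none had fewer. Of 8 formative and primed markers tested, Dnmt3a, Dnmt3b and Tcf15 had fewer in ES in all 3 comparisons, Tcf15 with no spread within lines. Of all genes, 10.5% to 11.9% were called in these comparisons. Some naive starts went the other way: at equal length the Tfcp2l1 start was open in no ES list but in 2 FS1, 2 FS2, 1 EpiSC_AF and all 6 EpiSC_AFX lists, and as deposited that of Esrrb was open in no ES list and all 6 EpiSC_AFX lists. Neither the neural, the endoderm nor the posterior mesoderm markers gave a call in any of the 6 comparisons, and 4, 3 and 1 of them entered the test.

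The starts of 5 members with an entry in the RefSeq promoter table (GRCm38.p6) lay in or beside a region of open chromatin found in at least 9 of the 18 first-set lists; the Hoxd11 start was the one outside its region, which ended within its upstream sequence. Their upstream sequences are shown because the peaks described below overlap them. Each is the 250 bases before the start, 5′ to 3′ along the gene. They are Hoxd1 at chr2:74762730-74762979, Hoxd13 at chr2:74667975-74668224, Hoxa13 at chr6:52260881-52261130 on the minus strand, Hoxd11 at chr2:74682073-74682322 and Hoxd10 at chr2:74691641-74691890. Capitals mark the GC box (GGGCGG), the CCAAT box (CCAAT) and the TATA box (TATAAA), each searched on both strands, with overlapping matches run together.
Hoxd1: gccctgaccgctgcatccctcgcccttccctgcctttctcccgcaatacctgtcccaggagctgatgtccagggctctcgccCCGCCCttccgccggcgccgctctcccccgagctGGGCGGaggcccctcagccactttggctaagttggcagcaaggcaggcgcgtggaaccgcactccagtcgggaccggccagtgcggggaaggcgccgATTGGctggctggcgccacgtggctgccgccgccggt
Hoxd13: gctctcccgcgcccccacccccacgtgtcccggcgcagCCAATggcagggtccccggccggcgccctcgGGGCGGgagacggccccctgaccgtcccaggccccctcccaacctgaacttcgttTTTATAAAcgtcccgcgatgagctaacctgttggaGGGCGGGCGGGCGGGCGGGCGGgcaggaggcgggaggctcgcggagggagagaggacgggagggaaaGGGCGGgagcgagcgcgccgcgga
Hoxa13: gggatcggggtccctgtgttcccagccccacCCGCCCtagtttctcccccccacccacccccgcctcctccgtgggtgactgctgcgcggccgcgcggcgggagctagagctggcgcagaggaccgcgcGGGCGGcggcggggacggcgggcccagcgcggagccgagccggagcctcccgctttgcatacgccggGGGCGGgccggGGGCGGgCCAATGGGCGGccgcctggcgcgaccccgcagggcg
Hoxd11: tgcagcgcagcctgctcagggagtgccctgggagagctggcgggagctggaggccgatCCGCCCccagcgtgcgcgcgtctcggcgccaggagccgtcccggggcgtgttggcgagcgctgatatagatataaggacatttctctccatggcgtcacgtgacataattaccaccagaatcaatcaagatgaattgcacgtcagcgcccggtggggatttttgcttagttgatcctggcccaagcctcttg
Hoxd10: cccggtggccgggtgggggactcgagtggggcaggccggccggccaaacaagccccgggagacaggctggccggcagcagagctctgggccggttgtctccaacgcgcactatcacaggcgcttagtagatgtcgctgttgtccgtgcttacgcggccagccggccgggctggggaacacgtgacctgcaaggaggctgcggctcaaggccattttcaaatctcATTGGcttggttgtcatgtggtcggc
The Hoxd13 sequence held 7 GC boxes, 1 CCAAT box and a TATAAA match on each strand at the same place. In Hoxa13 there were 5 GC boxes and 1 CCAAT box, in Hoxd1 2 and 1, in Hoxd11 1 GC box, and in Hoxd10 1 CCAAT box. Over all 32851 windows of this length in the table, 32.7% held a GC box, 33.8% a CCAAT box and 12.4% a TATA box. The table matched 22 of the 39 members with 24 windows, of which 10, 14 and 4 held these motifs. Among the 17 without an entry were Hoxa4, Hoxb2, Hoxb3, Hoxb5, Hoxb6, Hoxb7, Hoxb9, Hoxb13, Hoxc5, Hoxc6, Hoxc8, Hoxc9, Hoxc10, Hoxc11, Hoxc12 and Hoxc13. For all 17, a peak within 1 kb of either gene end was counted as a start peak, which favours them.

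Hox starts were less often open than the starts of protein-coding genes at large, in each of the 18 first-set lists and each of the 8 Rd2 lists. In the lists as deposited, 1 to 6 of the 39 Hox starts had a peak within 1 kb in ES, a mean of 8.55% ± 6.46 (SD, n = 3), against 24.6% ± 2.40 of all genes. In FS1 the share was 30.8% ± 6.82 against 54.4% ± 2.08, and in FS2 it was 12.0% ± 3.92 against 36.4% ± 2.93. EpiSC_AF had 23.1% ± 5.15 against 48.9% ± 4.42. EpiSC_AFX1 had 27.3% ± 6.44 against 51.8% ± 4.35. The highest share was that of EpiSC_AFX2, at 43.6% ± 4.45 against 54.6% ± 1.1, each with n = 3. At equal list length 1 to 5 Hox starts had a peak in any list, 2.56% to 12.8%, where all genes had 21.4% to 26.9%. With only genes that have a start entry, the Hox share was again below that of all genes in 18 of 18 lists, and that of ES fell to 4.55% ± 4.55 against 25.8% ± 2.45 (n = 3). The other group means then lay between 12.1% in FS2 and 39.4% in EpiSC_AFX2. These shares describe the genes and carry no test.

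**Figure D1:**
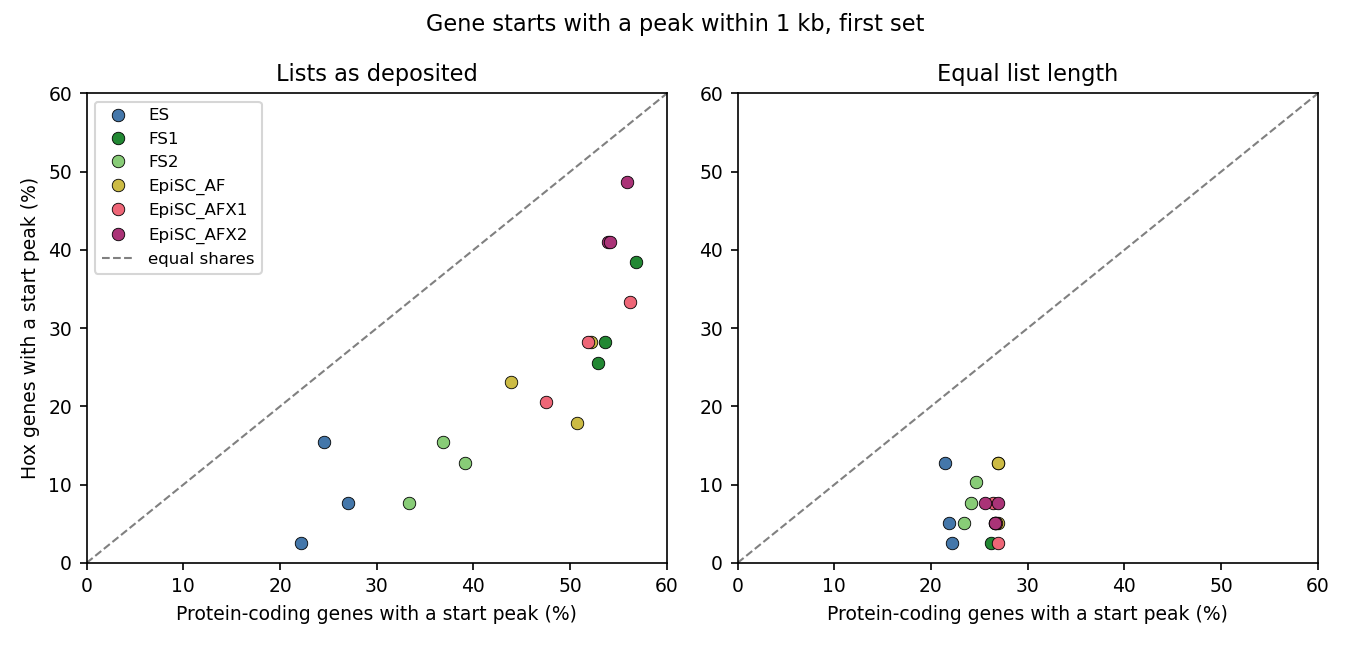
Percent of the 39 Hox genes (y axis) and of all 21887 protein-coding genes (x axis) with a peak within 1 kb of the gene start, 1 point for each first-set library, for whole lists (left) and equal list length (right); some points coincide. All 18 points lie below the line of equal shares in both panels, between 2.56% and 48.7% on the left and 2.56% and 12.8% on the right.

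Over the lists as deposited, 30 members had a start peak in at least 1 first-set library and 9 had none in any of the 26 lists. Those 9 were Hoxa2, Hoxa6, Hoxa9, Hoxa11, Hoxb3, Hoxb8, Hoxc9, Hoxd4 and Hoxd12. A start peak in 9 or more of the 18 libraries was found for 8 members: Hoxc13 in 18, Hoxd1 in 15, Hoxb7 in 13, Hoxc10 and Hoxd13 in 12, Hoxa13 and Hoxd11 in 10 and Hoxd10 in 9. Another 8 had one in 4 to 8 libraries (among them Hoxc11, Hoxc6, Hoxa4, Hoxb4, Hoxa10, Hoxb1 and Hoxb9). The remaining 14 had one in 1 to 3 libraries. Most of the peaks counted for Hoxc11 and Hoxc6, which have no start entry, lay near the 3′ end of the gene. Open starts were thus spread over single genes: in every cluster, genes open in many lists stood beside neighbours open in none.

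**Figure D2:**
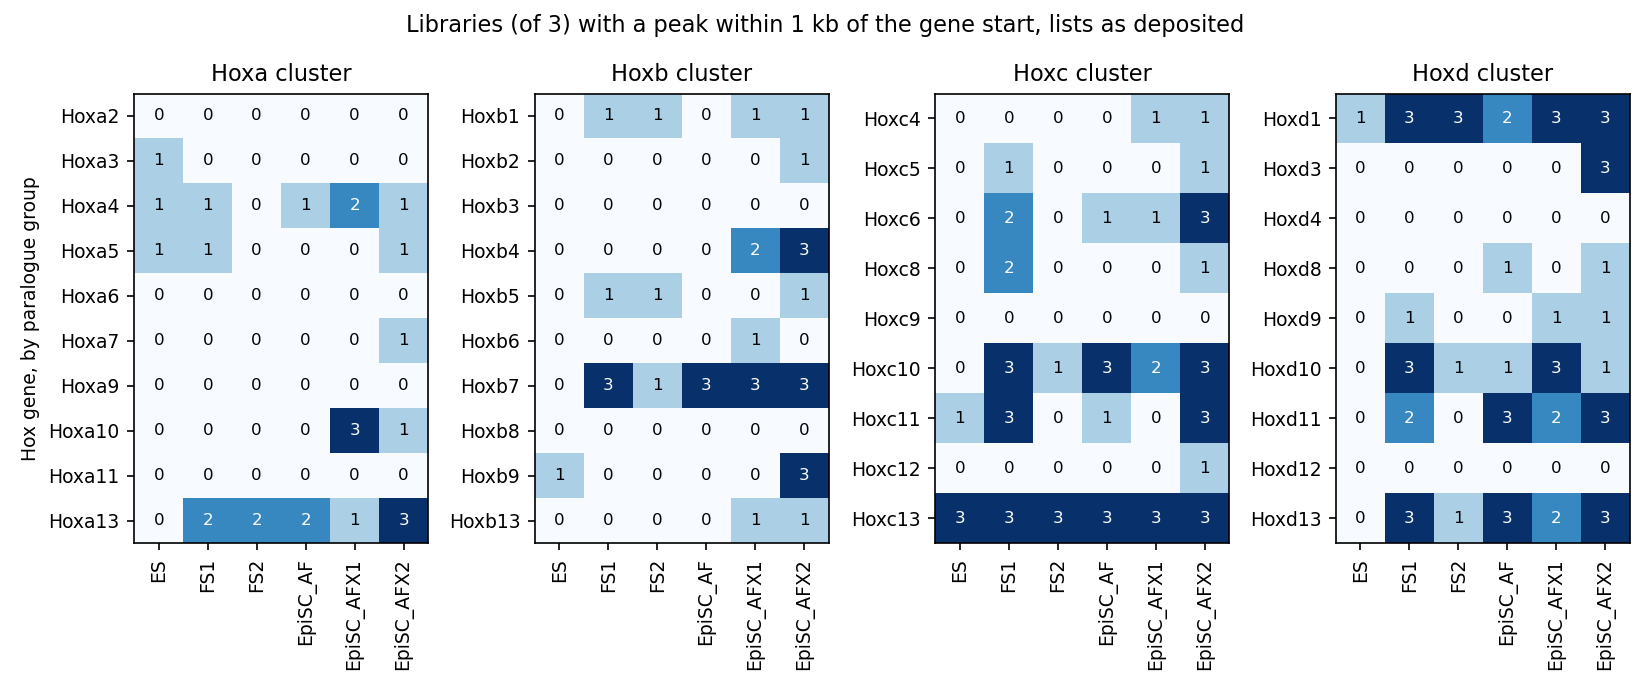
Number of the 3 libraries of each first-set group (columns) with a peak within 1 kb of the start of 38 Hox genes (rows, by paralogue number), lists as deposited; darker means more. Hoxc13 has a start peak in all 3 libraries of every group, and 9 genes, such as Hoxa2 and Hoxd12, have none.

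Paralogue groups 9 to 13 hold 16 of the 39 genes. As deposited, peaks assigned to them were the most numerous in each cell type of the first set. In ES they were 12 of 18 Hox peaks (66.7%), in FS 38 of 78 (48.7%), in EpiSC_AF 20 of 39 (51.3%) and in EpiSC_AFX 59 of 126 (46.8%). Groups 1 to 4, with 12 genes, took 6 of the 18 in ES, 34.6% in FS, 35.9% in EpiSC_AF and 38.1% in EpiSC_AFX. The middle groups 5 to 8, with 11 genes, took none of the 18 in ES, 16.7% in FS, 12.8% in EpiSC_AF and 15.1% in EpiSC_AFX. Per gene the order of groups 9 to 13 and 1 to 4 was not the same throughout. Groups 9 to 13 had 0.75 peaks a gene against 0.5 in ES, 2.38 against 2.25 in FS and 1.25 against 1.17 in EpiSC_AF, but 3.69 against 4.0 in EpiSC_AFX, summed over the libraries of each. Every window peak was given to its nearest Hox gene, so a region in the Evx2 gene, outside the cluster beside Hoxd13, counted in groups 9 to 13. It held a peak in 2 FS1, 1 FS2, 1 EpiSC_AF, 2 EpiSC_AFX1 and 3 EpiSC_AFX2 lists. Without its peaks the order per gene in FS would be reversed. All these counts are of the lists as deposited. At equal list length each EpiSC_AFX library had 1 peak in groups 5 to 8 and 0 to 2 in groups 9 to 13. Groups 9 to 13 were thus not the most numerous in EpiSC_AFX at that length. Peaks of 1 library are not independent, and the classes also differ in length, so no test was made.

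Per cluster, the Hoxd window held the fewest peaks in ES and the most in EpiSC_AFX2 among the first-set groups. As deposited, ES replicates 1 to 3 had 0, 0 and 1 Hoxd peaks, FS1 had 5, 6 and 9, FS2 had 1, 1 and 4, and EpiSC_AF had 4, 4 and 8. EpiSC_AFX1 had 5, 6 and 7 and EpiSC_AFX2 had 6, 11 and 7. In the first set no ES library reached the lowest EpiSC library, while ES and FS2 overlapped. In Rd2 the ES lists had 0 and 0 Hoxd peaks, the EpiLC lists 2, 6, 0 and 6 and the EpiSC lists in AFX 1 and 2, so over both sets ES and EpiSC overlapped. In the Hoxa window ES had 3, 0 and 3 peaks, FS1 4, 3 and 5, FS2 2, 0 and 2, EpiSC_AF 2, 2 and 5, EpiSC_AFX1 2, 6 and 4 and EpiSC_AFX2 3, 4 and 6. All of these groups overlapped with ES. The Hoxb window had 1 peak in every EpiSC_AF library and 2, 1 and 1 in ES, but 3, 3 and 6 in EpiSC_AFX1 and 5, 11 and 4 in EpiSC_AFX2. FS1 had 1, 3 and 5 there and FS2 had 2, 1 and 0. In the Hoxc window ES had 3, 2 and 2, FS1 6, 6 and 5, FS2 1, 3 and 3, EpiSC_AF 3, 4 and 4, EpiSC_AFX1 2, 4 and 3, and EpiSC_AFX2 8, 5 and 5.

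List lengths also differed between these groups, so rates were taken beside the counts. What set the order of the counts was not tested. Per 1000 peaks of the list, the mean over the 4 windows together was 0.608 ± 0.204 for ES (SD, n = 3), 0.611 ± 0.156 in FS (n = 6), 0.627 ± 0.109 in EpiSC_AF (n = 3) and 0.841 ± 0.131 in EpiSC_AFX (n = 6). The EpiSC_AFX libraries ran from 0.678 to 1.05 and overlapped with ES (0.373 to 0.730) and FS (0.424 to 0.768). For the Hoxd window alone the rate was 0.0343 ± 0.0595 in ES against 0.199 ± 0.102 in FS, 0.255 ± 0.0680 in EpiSC_AF and 0.282 ± 0.0476 in EpiSC_AFX, with ES at 0.103 or less, EpiSC at 0.186 or more and FS, from 0.0707, overlapping with ES. The Rd2 EpiSC lists in AFX, at 0.0889 and 0.187, overlapped with the first-set ES lists. For Hoxa the rate was 0.194 ± 0.169 in ES and 0.122 to 0.170 as the means of the other cell types. Comparisons of such totals over the members carry no p here.

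**Figure D3:**
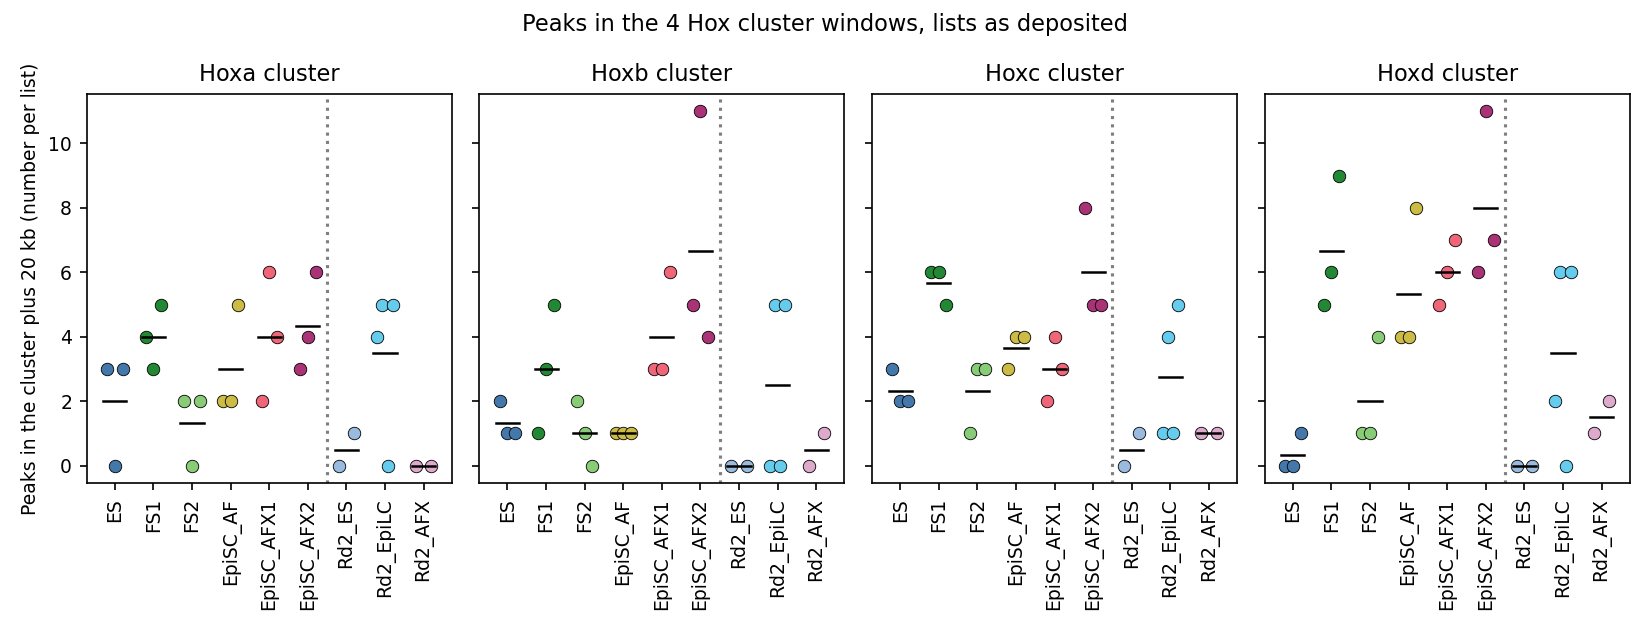
Number of peaks in each Hox cluster plus 20 kb on each side (y axis) in each library (points) of the 6 first-set groups and, right of the dotted line, the 3 Rd2 groups, lists as deposited; bars are group means. In the Hoxd panel the first-set ES points lie at 0 and 1 and the first-set EpiSC points between 4 and 11, while the Rd2 EpiSC points (AFX) lie at 1 and 2.

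At equal list length an ES library had 4.67 ± 1.53 Hox peaks (SD, n = 3; 5, 3 and 6), 2.67 ± 1.03 in FS (n = 6; 1 to 4), 4.0 ± 1.73 in EpiSC_AF (n = 3; 5, 2 and 5) and 2.67 ± 1.03 in EpiSC_AFX (n = 6; 1 to 4). ES thus had 2.0 more than FS or EpiSC_AFX, and 0.667 more than EpiSC_AF, and the ranges overlapped in each case. The order of ES against the rest turned with list length: as deposited ES had 7.0 fewer than FS or EpiSC_AF and 15.0 fewer than EpiSC_AFX. By cluster, equal list length left 2, 0 and 3 Hoxa peaks in ES and 1 in the 15 other libraries together (EpiSC_AFX1 replicate 2). It left none of the Hoxd peaks of ES, against 0 to 3 in the 15 other libraries, so ES overlapped with each other cell type in the Hoxd window too.

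The region at the Hoxc13 start, chr15:102920600-102921531, was the most widely shared of the 72 Hox regions made by merging overlapping first-set peaks. Hoxc13, at the 5′ end of its cluster, is known for its part in hair and nail formation. A peak was present in 18 of 18 first-set lists, as were 4.01% of all 67172 regions. Its percentile, the percent of peaks in the same list with a lower rank by −log10 p, was 46.8, 78.4 and 67.1 in ES, 87.4, 85.5 and 87.9 in FS1 and 89.0, 51.3 and 48.7 in FS2. It was 88.5, 83.1 and 85.3 in EpiSC_AF, 47.8, 50.9 and 69.1 in EpiSC_AFX1 and 78.4, 77.3 and 86.5 in EpiSC_AFX2. The authors' fold enrichment there ranged from 3.61 to 6.97. In the Rd2 set the region was open in all 4 EpiLC lists and in 1 of 2 ES lists, with percentiles of 67.5 to 98.5, and in neither EpiSC list in AFX. At equal list length it was kept in 15 libraries and lost in the 3 of EpiSC_AFX1. There it ranked 9245, 10504 and 8505, below the cut at 8044. That cut kept 73.4% and 82.9% of the lists of ES replicates 1 and 3 and all of replicate 2. It kept 45.4%, 37.6% and 29.3% of the EpiSC_AFX1 lists and 25.7% to 33.7% of the FS1 lists. The −log10 q of the region was 3.16, 3.56 and 5.02 in EpiSC_AFX1 and 2.04, 3.52 and 2.85 in ES. The part of list length in this loss was not tested.

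A neighbouring region, chr15:102931643-102932119, between Hoxc13 and Hoxc12 and overlapping no annotated gene, was found in all ES lists, at percentiles of 84.8, 60.6 and 71.7. As deposited only FS2 replicate 2 (26) and EpiSC_AFX2 replicate 1 (19.1) of the other 15 first-set lists held it, and none of the 8 Rd2 lists did. The Rd2 ES lists hold only 471 and 2576 peaks, so its absence there says little. The region ranked 1665, 3171 and 2743 in the first-set ES lists. At equal list length it was in 3 of 3 ES lists and 0 of 15 others. It was the only Hox region separated between ES and FS, meaning present in every library of one type and in none of the other: 1 of 16 Hox regions, where 3.84% of all 21856 regions were separated. Between ES and EpiSC_AFX 2 of 15 Hox regions were separated (all regions 5.35%), and between ES and EpiSC_AF 2 of 14 (all regions 8.93%). The other region of each pair was the one at Hoxb7, described next. No Hox region was separated in the comparisons among FS, EpiSC_AF and EpiSC_AFX. Between FS and EpiSC_AFX there were 10 Hox regions, and of all 18713 regions 24 were held by FS and 10 by EpiSC_AFX. For FS and EpiSC_AF there were 10, with 58 and 99 of all 17487. For EpiSC_AF and EpiSC_AFX there were 8, with 44 and 18 of all 15517. With so few regions separated, the lack of Hox regions is no result about Hox genes.

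The region at Hoxb7 went the opposite way. It spans chr11:96285318-96285668, from the 3′ end of Hoxb8 to the 5′ end of Hoxb7, genes of the trunk paralogue groups. The Rd2 ES lists, with only 471 and 2576 peaks, say little here. No ES list of either set held the region. Its percentile was 46.2, 70.0 and 90.9 in FS1, and 23.2 in FS2 replicate 1 with no peak in the other FS2 lists. It was 56.2, 75.9 and 86.5 in EpiSC_AF, 69.2, 63.1 and 71.6 in EpiSC_AFX1 and 94.5, 84.8 and 93.7 in EpiSC_AFX2. EpiLC replicates 1.2 and 2.2 held it, at 67.5 and 49.4, and the Rd2 EpiSC lists did not. At equal list length it was in 0 of 3 ES, 2 of 3 FS1, 0 of 3 FS2 and 9 of 9 EpiSC lists.

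Members of paralogue group 13 besides Hoxc13 act in limb, genital and hindgut development. The Hoxd13 start had a peak in no ES list, in 3 of 3 FS1, 1 of 3 FS2, 3 of 3 EpiSC_AF, 2 of 3 EpiSC_AFX1 and 3 of 3 EpiSC_AFX2 lists. Its percentiles were 23.3, 47.7 and 13.7 in FS1, 67.0 in FS2 replicate 3, and 57.3, 52.1 and 74.0 in EpiSC_AF. In EpiSC_AFX1 replicates 1 and 3 they were 7.76 and 29, and in EpiSC_AFX2 43.7, 75.1 and 35.3. EpiLC replicates 1.1, 1.2 and 2.2 held it at 90.5, 64.2 and 39.9 and Rd2 EpiSC replicate 2 at 16.8. The Hoxa13 start, open in 10 lists, had lower ranks, with a median percentile of 23.3, and dropped out of every list at equal length. Hoxb13, whose gene lies apart from the rest of its cluster, had a start peak in 2 lists, both EpiSC_AFX.

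Group 1 members are the first Hox genes used and act in the hindbrain. The Hoxd1 start had a peak in ES replicate 3 alone of the ES lists, at a percentile of 5.66, and in all 6 FS lists, at 66.1, 39.4 and 44.2 in FS1 and 73.3 in FS2 replicate 1, with the other 2 FS2 libraries at the median of their lists. EpiSC_AF replicates 1 and 3 held it at 66.3 and 2.26. EpiSC_AFX1 had 86.0, 82.5 and 57.7 and EpiSC_AFX2 39.2, 28.7 and 61.4. Hoxb1 had a start peak in 1 list each of FS1, FS2, EpiSC_AFX1 and EpiSC_AFX2.

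Between the ends of the clusters, Hoxc10, which acts in lumbar motor neurons, was open at its start in 12 lists. Its percentiles were 49.4, 46.4 and 57.2 in FS1, 18.4, 32.0 and 72.3 in EpiSC_AF and 79.2, 59.0 and 52.6 in EpiSC_AFX2. No ES list and 1 of 3 FS2 lists held it. The Hoxd11 start followed with 10 lists: 51.4, 44.5 and 69.8 in EpiSC_AF, 65.5, 64.1 and 59.9 in EpiSC_AFX2, 2 lists each of FS1 and EpiSC_AFX1, and none of ES or FS2. Hoxd10 was open in 9 lists, 3 each of FS1 and EpiSC_AFX1 and 1 each of FS2, EpiSC_AF and EpiSC_AFX2. As deposited, 3 starts were open in at least 3 EpiSC_AFX lists and in no other first-set list (all genes 0.302%). Hoxb4, a gene of blood stem cells, had 2 of 3 EpiSC_AFX1 and 3 of 3 EpiSC_AFX2 lists, Hoxa10, a gene of the uterus, 3 of 3 and 1 of 3, and Hoxd3 0 of 3 and 3 of 3. EpiSC_AFX lists are among the longest, and none of the 3 starts was kept at equal length. Of the 66 such starts over all genes only 4 were kept. In Rd2, EpiLC held Hoxa10 in 2 lists and Hoxd3 in 1, and the EpiSC lists held none of the 3. Hoxb9 had 3 of 3 EpiSC_AFX2 lists and 1 ES list. Hoxc11, a hindlimb gene without a start entry, counted as open in 3 of 3 FS1, 3 of 3 EpiSC_AFX2, 1 EpiSC_AF and 1 ES list. Most of these peaks lay near its 3′ end. The region there, chr15:102955836-102956477, was in 2 FS1, 3 EpiSC_AFX2, 1 EpiSC_AF and 1 ES list. The region at its 5′ end, chr15:102954607-102955224, was in 1 FS1 and 1 EpiSC_AF list.

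**Figure D4:**
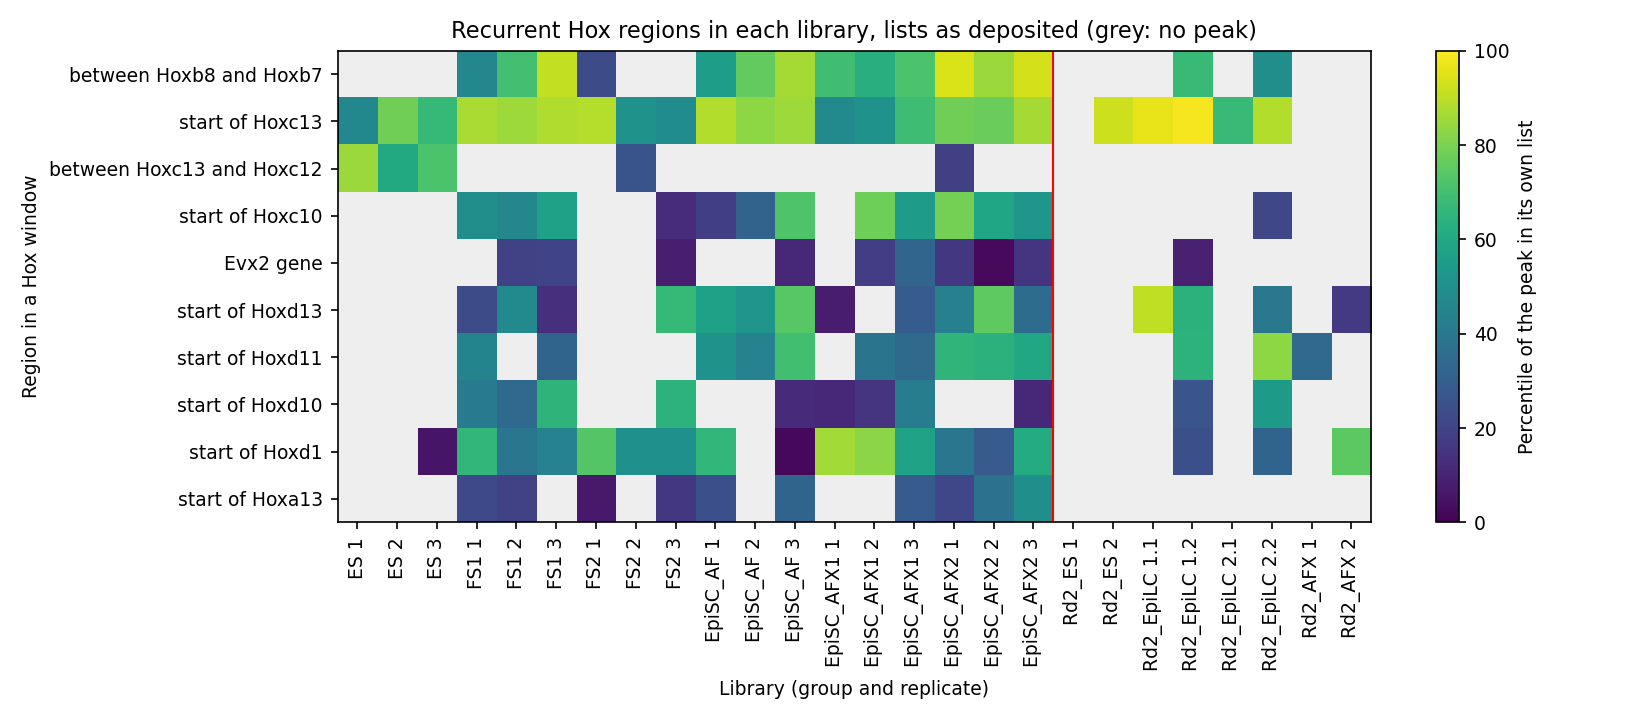
Percentile of the peak by −log10 p within its own list (colour) for 9 Hox regions found in at least 9 first-set lists and the one between Hoxc13 and Hoxc12 (rows), in each of 26 libraries (columns); grey means no peak, and the red line parts the first set from Rd2. Only the Hoxc13 start is filled in all 18 first-set columns, and the row between Hoxc13 and Hoxc12 is filled in the 3 ES columns and 2 others.

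Starts were then compared between cell types as separated or not. At equal list length ES and FS had no separated Hox start (all genes 1.33%), and 1 of 39, Hoxb7, between ES and EpiSC_AFX (all genes 1.80%). Hoxb7 was also the only one between ES and EpiSC_AF (all genes 3.22%). There was none between FS and EpiSC_AFX (0.0183%), FS and EpiSC_AF (0.270%) or EpiSC_AF and EpiSC_AFX (0.114%). In the lists as deposited the count was 0 for ES against FS (3.46%) and 1, Hoxb7, between ES and EpiSC_AFX (10.1%). Between ES and EpiSC_AF it was 4, namely Hoxb7, Hoxc10, Hoxd11 and Hoxd13, all closed in ES, where 10.1% of all genes were separated. None was separated between FS and EpiSC_AFX (0.0366%) or FS and EpiSC_AF (0.123%). Against ES these counts were close to or under the share of all genes. Leaving out EpiSC_AF replicate 2 at equal length raised the count between ES and EpiSC_AF to 3. With fewer libraries the rule is easier to meet for any gene. The all-gene share for that setting is not given, so the rise is no result about Hox genes.

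The number of peaks assigned to each gene, as the nearest protein-coding gene within 20 kb, was tested with limma on the log2(number + 1) scale over 10018 genes with a peak in at least 3 first-set lists at equal length. Of the Hox genes 6 entered this test, Hoxa3, Hoxb7, Hoxc10, Hoxc13, Hoxd1 and Hoxd13, and 33 did not. A gene called here has a Benjamini-Hochberg adjusted p below 0.05. In ES against FS 1 was called, Hoxc13 (all genes 11.9%), and in ES against EpiSC_AFX 2, Hoxc13 and Hoxb7 (all genes 11.9%). Between ES and EpiSC_AF (10.5%), FS and EpiSC_AFX (1.78%) and EpiSC_AF and EpiSC_AFX (0.579%) the call was Hoxc13 alone. Between FS and EpiSC_AF none was called or had an unadjusted p below 0.05, by limma or by an exact permutation test, where 1.88% of all genes were called.

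For Hoxc13 the difference in log2 assigned peaks was 0.58 for ES minus FS and 0.58 for ES minus EpiSC_AF, and it was 1.08 for ES minus EpiSC_AFX. With only peaks of −log10 q at or above 5 the direction turned, to -0.67, -1.0 and -0.67, and Hoxc13 was called lower in ES in all 3 comparisons, where 32.4%, 37.7% and 56.6% of all genes were. As deposited, every EpiSC_AFX1 list held the start region, and the difference was 0.49 for ES minus EpiSC_AFX and 0.0 for FS minus EpiSC_AFX. ES libraries kept both Hoxc13 regions at equal length, FS, EpiSC_AF and EpiSC_AFX2 libraries kept the start region, and EpiSC_AFX1 libraries kept neither. Every library of a line had the same count, as in 988 of the genes tested, so the limma standard error of this gene rests on no measured spread and its p is not printed. With each gene's spread raised to at least the median over genes, the limma adjusted p of Hoxc13 between ES and EpiSC_AFX was 0.0673 and no Hox gene was called in any of the 6 comparisons. Of all genes, that floor left 0.898% called between ES and EpiSC_AFX and 0.0% in the other 5 comparisons, so the lack of Hox calls is no result about Hox genes. By an exact permutation test, two-sided, its p was 0.0119 for ES against FS and 0.0238 for ES against EpiSC_AFX, with adjusted values of 0.228 and 0.327, and 0.0% of all genes were called by it in any comparison. The smallest p it can give for 3 against 6 libraries is 0.0119. Where each group has 3 libraries, as for ES and EpiSC_AF, that test cannot go below 0.1.

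Hoxb7 differed by -1.0 in log2 assigned peaks between ES and EpiSC_AFX (SE 0.232, limma adjusted p = 0.0127), with 0 of 3 ES and 6 of 6 EpiSC_AFX libraries holding the peak. With the floor on the spread the limma adjusted p was 0.0673, and by exact permutation p was 0.0119, adjusted 0.172. Between FS and EpiSC_AFX the difference was -0.67 (SE 0.189, limma adjusted p = 0.109). Between ES and EpiSC_AF it was -0.67 and Hoxb7 was not called, though 3 of 3 EpiSC_AF libraries held the region. In 1 library at equal length the peak there was assigned to Hoxb8. Without EpiSC_AF replicate 1, Hoxb7 was called against EpiSC_AF too. The missing call is thus no sign of a difference between EpiSC_AF and EpiSC_AFX. Hoxa3, whose gene model spans Hoxa4 to Hoxa6, was 0.86 higher in ES than in FS (SE 0.280, limma adjusted p = 0.0733), which misses the threshold. Without ES replicate 2, which had no Hoxa peak, the difference was 1.29 and was called.

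In the lists as deposited 24 Hox genes entered the test and most calls were lower in ES, as for all genes. They numbered 3 of 24 between ES and FS (all genes 27.4% lower in ES), 9 between ES and EpiSC_AFX (42.1%) and 4 between ES and EpiSC_AF (23.9%). The 3 in the first were Hoxb7, Hoxc10 and Hoxd1. The 9 in the second were Hoxa10, Hoxb4, Hoxb7, Hoxc6, Hoxc10, Hoxd1, Hoxd3, Hoxd11 and Hoxd13, with log2 differences from -0.67 to -1.32 (Hoxd3, SE 0.327, limma adjusted p = 0.00639). Hoxc13 was the 1 member called higher in ES, in all 3 comparisons (all genes 1.02% against FS, 0.901% against EpiSC_AFX and 0.496% against EpiSC_AF). Among the other comparisons, 2 of 24 were lower in FS than in EpiSC_AFX (all genes 2.61%), Hoxa10 and Hoxb4, and 1 lower in EpiSC_AF than in EpiSC_AFX (all genes 0.599%), Hoxb4. The Hoxb4 difference for FS minus EpiSC_AFX was -0.83 (SE 0.134, limma adjusted p = 0.00345). ES lists are the shortest, and the median of all genes was -0.43, -0.60 and -0.33 in these comparisons. With the floor on the spread, the ES and FS comparison had no Hox call, the ES and EpiSC_AFX one 6, the ES and EpiSC_AF one 2, all lower in ES, and the others none. The shares of all genes were 16.9%, 33.8%, 17.4% and 0.0% in the others.

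In the Rd2 set the Hox windows held 20 or more peaks in the 2 longest EpiLC lists and 7 or fewer in the others. EpiLC replicates 1.1, 1.2, 2.1 and 2.2 had 7, 20, 1 and 21 Hox peaks in lists of 10563, 23608, 7469 and 26045. Rd2 ES had 0 and 2, in lists of 471 and 2576, and Rd2 EpiSC in AFX had 2 and 4, in lists of 11252 and 10719. The difference between EpiLC and EpiSC was 9.25 peaks (12.2 ± 9.84, n = 4, against 3.00 ± 1.41, n = 2), and their ranges overlapped. Per 1000 peaks it was 0.613 ± 0.329 against 0.275 ± 0.138, also overlapping. Of the 57 Rd2 Hox peaks 50 overlapped a Hox region of the first set, and 9 of the 10 regions found in at least 9 first-set lists had an EpiLC peak; the Hoxa13 start had none. EpiLC opened the Hoxa3 region chr6:52172323-52172843 in 3 of 4 lists, which FS1 held in 3 of 3, EpiSC_AFX1 in 1 of 3 and EpiSC_AFX2 in 2 of 3 lists, and which no ES, FS2, EpiSC_AF or Rd2 EpiSC list held.

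Genes that work with or upstream of the Hox genes were counted in the same way. Of all genes, a mean of 24.6% had a start peak in ES as deposited, and 36.4% to 54.6% in the other first-set groups. At equal length these group means ran from 21.8% to 26.9%. Of 9 TALE cofactors, the Pbx, Meis and Pknox partners with which Hox proteins bind DNA, 48.1% had a start peak in ES as deposited, 74.1% in FS1, 63.0% in FS2, 81.5% in EpiSC_AF and 77.8% and 88.9% in EpiSC_AFX1 and EpiSC_AFX2. Of 14 Polycomb genes, repressors of the clusters, 61.9% were open in ES and in FS2, 95.2% in FS1 and EpiSC_AFX1, 97.6% in EpiSC_AF and all 14 in every EpiSC_AFX2 list. At equal length the Polycomb share was 57.1% in ES, above the 45.2% in FS1, 40.5% in FS2 and 52.4% in both EpiSC_AFX lines. EpiSC_AF stood higher, at 64.3%. For the cofactors the equal-length shares were 44.4% in ES, 55.6% in FS1, 40.7% in FS2, 66.7% in EpiSC_AF, 51.9% in EpiSC_AFX1 and 55.6% in EpiSC_AFX2. Of 10 trithorax genes, which oppose them, a mean of 2.67 were open in ES lists as deposited, 9.0 in FS1, 5.0 in FS2 and 7.0 to 7.67 in the EpiSC groups. The 3 Cdx genes, activators of the posterior Hox genes, had no start peak in ES or FS2 and at most 2 in any first-set list. The limma calls at equal length stand against 11.9% of all genes for ES minus FS and ES minus EpiSC_AFX and 10.5% for ES minus EpiSC_AF. For the cofactors Pknox2 was lower in ES than in FS, 1 of 9, close to the share of all genes. Cdx1 was higher in ES than in each other type, 1 of 2 tested, with no spread within lines. Mtf2 of the 13 Polycomb genes tested was higher in ES than in EpiSC_AFX, and none of the 7 trithorax genes tested was called in any of the 6 comparisons. Of the 3 retinoic acid genes tested, Rarb was higher in ES than in EpiSC_AFX. Rarg was higher in EpiSC_AF than in each other type, with no spread within lines. The all-gene share was 1.88% for FS minus EpiSC_AF and 0.579% for EpiSC_AF minus EpiSC_AFX.

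Markers of cells that use Hox genes were counted beside these results. Of 6 posterior mesoderm and streak markers, 0 to 1 had a start peak in ES lists as deposited, 1 to 3 in FS1, 1 in each FS2 list and 0 to 3 in the EpiSC lists. The T start was open in no ES or FS2 list, in 1 of 3 FS1, 2 of 3 EpiSC_AF, 2 of 3 EpiSC_AFX1 and 1 of 3 EpiSC_AFX2 lists. Of 5 neural markers, 0 to 1 were open in ES, 4 to 5 in FS1, 1 to 3 in FS2 and 3 to 5 in EpiSC. At equal length 0 to 1 of the neural markers were open in ES and EpiSC_AF lists, 0 to 2 in FS1 and EpiSC_AFX2 and 1 to 2 in FS2 and EpiSC_AFX1, and 0 to 1 of the mesoderm and streak markers in any list. The part of such cells in the Hox values was not tested. In bulk lists, a region open in few cells and one weakly open in all cannot be told apart.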

How the data were processed

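Open chromatin peaks of 26 ATAC-seq libraries were analysed. Per the submitters' processing notes, Trim Galore, Bowtie, Picard and MACS2 were used on mm10, which is GRCm38; versions and settings are not given in the sources used here. The authors called peaks per library, and the deposited lists give for each peak a fold enrichment (a ratio), a −log10 p and a −log10 q, with the lowest −log10 q near 1. These values served to rank peaks inside their own list. First-set lists reach down to peaks of 150 bp and Rd2 lists to 110 bp, so the sets were compared only where stated. Read depth is unknown, and no counting interval is given.

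Gene spans came from a RefSeq gene table of GRCm38 and starts from its promoter table, where it has the gene. A start peak overlapped the 1 kb on either side of a start by at least 1 bp. A region was a union of overlapping first-set peaks. Assigned peaks were tested with limma 3.58.1 (trend and robust, 1 mean per line, pseudocount 1, all 18 libraries, Benjamini-Hochberg over all genes tested), tested on simulated data beforehand. Python 3.11.15 and R 4.3.3 were used. Alternatives were list length, ranking, peak threshold, windows, overlap, filter, pseudocount, an exact permutation test, a replicate block and leaving out each library; a floor on the spread was added after seeing the data. Named were the 3 members of each cluster with the most assigned peaks, paralogue groups 1 and 13, and every member called or separated; further members were named after their values were seen, and 1 member is not reported here. The members and lists were chosen with earlier results of these data known.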

Additional observations from a re-analysis of the deposited data

Results flagged for a closer look

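Each group of 4 or more libraries was searched for a library whose gap to the nearest other was wide for the range of its group; chance marks about 1 in 20 groups, and of 25 groups and measures searched 3 were marked, all among the peak rates of the clusters. In FS, replicate 2 of FS2 had 0.0 Hoxa peaks per 1000 peaks, where the other 5 FS libraries had 0.126 to 0.160. In EpiSC_AFX, replicate 2 of EpiSC_AFX2 had 0.372 Hoxb peaks per 1000, where the other 5 had 0.140 to 0.218. The same library had 0.372 Hoxd peaks per 1000, against 0.234 to 0.282 in the other 5. Its list held 29575 peaks, and its Hox peaks had a median percentile of 16.8, among the lowest of the 18 first-set lists.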

How the results depend on the processing

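The count of Hox peaks turned with list length. Against the equal-length differences, the lists as deposited gave -7.00 for ES minus FS and ES minus EpiSC_AF, -15.0 for ES minus EpiSC_AFX, and -8.00 for FS minus EpiSC_AFX and EpiSC_AF minus EpiSC_AFX. Peaks with −log10 q of at least 5, of which ES had none in the windows, gave -1.17, -2.67, -2.83 and, for FS minus EpiSC_AFX, -1.67. Leaving out each library gave 1.33 to 2.83 for ES minus FS and for ES minus EpiSC_AFX, -0.333 to 1.5 for ES minus EpiSC_AF, -0.333 to 0.333 for FS minus EpiSC_AFX, -2.33 to -0.833 for FS minus EpiSC_AF, 0.833 to 2.33 for EpiSC_AF minus EpiSC_AFX and 6.33 to 13 for Rd2 EpiLC minus EpiSC.

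The limma counts of Hox genes were 0 in every comparison under the exact permutation test and under the floor on the spread, chosen after seeing the data. Neither zero is about Hox genes: of 10018 genes the exact test called 0 in every comparison, and the floor called 90 for ES minus EpiSC_AFX and 0 elsewhere. At an unadjusted p below 0.05 the floor left 1, 3, 1, 1, 0 and 0 of 6 Hox genes for ES minus FS, ES minus EpiSC_AFX, ES minus EpiSC_AF, FS minus EpiSC_AFX, FS minus EpiSC_AF and EpiSC_AF minus EpiSC_AFX, and the exact test left 1 and 2 in the first pair and 0 elsewhere. Of all genes the floor left 18.7%, 20.4%, 12.1%, 4.71%, 7.63% and 4.42% in the same order. The exact test left 10.0% and 11.7% of all genes in the first pair and 0.0% to 3.33% elsewhere. Ranking by fold enrichment left 1 of 6 for ES minus EpiSC_AFX (all genes 10.0%) and 0 elsewhere (all genes 0.383% to 10.1%). The lists as deposited gave 4, 10 and 5 of 24 for ES minus FS, EpiSC_AFX and EpiSC_AF, and 2 for FS minus EpiSC_AFX. Of all genes 28.5%, 43.0%, 24.4% and 2.79% were called there. No filter on low values gave 3, 4 and 4 of 15 Hox genes for ES minus FS, EpiSC_AFX and EpiSC_AF, with 10.6%, 10.5% and 9.52% of all genes called. The −log10 q minimum gave 1 of 4 for ES minus EpiSC_AFX (all genes 56.8%). It gave 0 for FS (all genes 20.6%) or EpiSC_AF (all genes 1.81%) minus EpiSC_AFX. Leaving out each library gave 1 to 2 for ES minus FS (2 without ES replicate 2, when Hoxa3 was added) and ES minus EpiSC_AF (2 without ES replicate 2 or EpiSC_AF replicate 1), 2 to 3 for ES minus EpiSC_AFX, 1 for FS or EpiSC_AF minus EpiSC_AFX and 0 for FS minus EpiSC_AF. The Hoxc13 difference reversed under the −log10 q minimum, to -0.67 for ES minus FS and EpiSC_AFX and -1.0 for ES minus EpiSC_AF, and in the lists as deposited to -0.10 for EpiSC_AF minus EpiSC_AFX.

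Separated starts for ES minus EpiSC_AFX fell to 0 under the fold ranking and the −log10 q minimum. Those for ES minus EpiSC_AF were 4 as deposited and 1 to 3 on leaving out each library. EpiSC_AF minus EpiSC_AFX had 1 as deposited and 0 to 1 on leaving out a library, FS minus EpiSC_AF 0 to 1, ES minus EpiSC_AFX 1, and the others 0. Leaving out EpiSC_AF replicate 2 gave each higher value. Fewer libraries make the rule easier to meet for any gene, and all-gene shares on leaving out a library are not given. The cause of these changes was not tested. Libraries with the same number did not deviate together (mean r = -0.00144 over 45 pairs, none over 0.1, and 5 of 18 closest to their own number), and limma with a replicate block gave 1, 2, 1, 1, 0 and 1 Hox calls, as without it.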
